A study of Mus musculus with 15 samples.

Results

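Endothelial genes of the mouse liver are described here: 34 markers of the cells that line the sinusoids and larger vessels, chosen by symbol from the 24965 genes of the authors' deposited table. All 34 were found, each on 1 row, and all 34 were among the 13335 genes with a deposited adjusted p. The study measured liver RNA of male C57BL/6J mice aged 9 weeks that all carried floxed alleles of Gata4. At 8 weeks of age they had been given an adeno-associated virus of serotype 8, which either carried Cre driven by the Tbg promoter (genotype Gata4LKO) or was empty (Control). The labels give 4 fasted Gata4LKO, 4 fasted Control, 3 refed Gata4LKO and 4 refed Control livers. Fasted mice went without food for 12 h. Refed mice were fasted for 12 h and then fed a diet of 69% sucrose and 10% fat for 12 h, and all livers were taken at 9 to 10 in the morning, 7 days after the virus. The Tbg promoter is active in hepatocytes, so Cre was directed at those and not at endothelial cells, and its presence coincides with the genotype label.

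The deposited table holds 1 comparison and no value per liver. The contrast was worked out only from genes with 1 read in 1 library. These fit 2 readings equally well, Gata4LKO minus Control in fasted livers and refed minus fasted in Control livers. Other genes were not used to separate the 2 readings. The first was taken because the table is named for genotype, and each direction below rests on that reading. Whether the livers of the groups overlap for a gene could therefore not be shown. Values per gene are the mean normalized count over all 15 libraries, the log2 fold change and its standard error (SE) in the authors' DESeq2 model. "Called" means a deposited adjusted p under 0.05.

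Liver sinusoidal endothelial cells form a fenestrated wall without a continuous basement membrane and clear macromolecules from blood through scavenger receptors such as the stabilins. They also send signals to hepatocytes: BMP2 drives hepcidin and with it iron balance, while WNT2, WNT9B and R-spondin 3 from the endothelium of the central side maintain pericentral hepatocyte genes. Hepatocytes in turn supply VEGF to endothelial receptors. In mice GATA4 is itself present in sinusoidal endothelial and stellate cells, where a hepatocyte-directed Cre would not remove it.

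Gata4 was not lower in livers labelled Gata4LKO: its log2 fold change was 0.31 ± 0.15 (SE; adjusted p 0.361, DESeq2, the authors' deposited table). The labelled loss was thus not seen in this table, and neither the genotype labels nor the reading taken could be checked with this value. Which exons are floxed is not in the labels, the share of the count from cells other than hepatocytes was not measured, and no value per liver is in the table. Library depth was similar, with relative size factors of 0.912 to 1.11.

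The study was designed to remove a GATA factor from hepatocytes, and ETS factors are known regulators of endothelial genes. The 250 bases before the RefSeq start (build GRCm38.p6) were therefore searched for both kinds of core. A GATA core was taken as the letters GATA with A or T before and A or G after them, an ETS core as GGAA with CC or CA before it, and both strands were searched. Of the 34 genes, 19 matched a promoter entry, with 21 windows because Egfl7 has 3. Shown are Clec4g and Clec1b, lectin receptors whose windows hold a GATA core but whose estimates lay on opposite sides of 0. Emcn and Stab1, also shown, hold ETS cores but no GATA core, and their estimates also lay on opposite sides. Capitals mark the GATA and ETS letters, and no base belongs to both kinds. The windows are chr8:3720652-3720901 (minus strand) for Clec4g, chr6:129397047-129397296 (plus) for Clec1b, chr3:137340828-137341077 (plus) for Emcn and chr14:31168642-31168891 (minus) for Stab1.
Clec4g: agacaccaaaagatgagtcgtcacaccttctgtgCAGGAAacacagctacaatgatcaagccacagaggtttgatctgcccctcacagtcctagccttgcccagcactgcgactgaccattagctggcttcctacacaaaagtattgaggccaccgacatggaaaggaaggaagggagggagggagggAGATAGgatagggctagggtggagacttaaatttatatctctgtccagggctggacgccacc
Clec1b: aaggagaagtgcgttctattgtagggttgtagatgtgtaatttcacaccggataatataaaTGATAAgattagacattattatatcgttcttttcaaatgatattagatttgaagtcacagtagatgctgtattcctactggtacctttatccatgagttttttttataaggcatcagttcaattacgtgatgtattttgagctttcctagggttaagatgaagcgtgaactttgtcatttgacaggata
Emcn: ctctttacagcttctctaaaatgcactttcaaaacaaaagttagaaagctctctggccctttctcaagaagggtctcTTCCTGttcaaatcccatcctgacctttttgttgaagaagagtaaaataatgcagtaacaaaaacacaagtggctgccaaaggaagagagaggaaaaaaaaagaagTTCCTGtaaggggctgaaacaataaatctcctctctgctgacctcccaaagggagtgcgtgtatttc
Stab1: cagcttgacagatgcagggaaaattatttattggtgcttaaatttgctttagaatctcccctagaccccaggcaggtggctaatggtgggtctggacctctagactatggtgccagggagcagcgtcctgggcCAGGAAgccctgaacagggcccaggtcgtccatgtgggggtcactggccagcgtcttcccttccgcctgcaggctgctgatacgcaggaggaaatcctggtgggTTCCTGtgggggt

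In Clec4g the GATA letters AGATAG began 62 bases before the start and the ETS letters CAGGAA 216 bases before it. Clec1b had TGATAA at 189 bases, Emcn had TTCCTG, the other strand of CAGGAA, at 173 and 67 bases, and Stab1 had ETS letters at 117 and 13 bases. A GATA core stood in the windows of 5 of the 19 genes (26.3%; Clec1b, Clec4g, Egfl7, Ehd3 and Wnt2), against 29.7% of all 27025 genes with a window. Counted by window it stood in 7 of 21 (33.3%), of which Egfl7 gave 3, against 26.5% of all 32851 windows. An ETS core stood in the windows of 10 of the 19 genes (52.6%; among them Kdr, Tek, Tie1 and Robo4), against 38.2% of all genes. The letters ACAAT, a SOX core, stood in 6 of the 19 (31.6%), against 30.9% of all genes. Among them were Clec4g, Clec1b and Emcn, where these letters are not in capitals. These matches describe letters in a window, and no binding was measured.

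Levels were compared per kb of merged exon (GENCODE M21, mm10), because the genes differ in exon length from 1620 bases in Sox18 to 13504 in Flt1. On that scale of mean normalized counts per kb over all 15 libraries, the genes spanned 4.16 to 204.7, a ratio of 49.2, with a median of 40.9. Aqp1, a water channel that bile duct cells and red cells also make, stood highest at 204.7, followed by Plvap, whose protein forms the diaphragms of fenestrae, at 160.4 and the BMP coreceptor gene Eng at 152.2 counts per kb. The sinusoidal receptors Clec4g and Stab2 and the nuclease gene Dnase1l3 lay close together at 114.9, 110.4 and 109.0 counts per kb. Lowest were Flt1, Emcn and Wnt9b, at 13.3, 6.16 and 4.16 counts per kb. The spread of these levels over livers is not in the table, so neighbours in that order could not be compared beyond it. Together the 34 genes held 0.0554% of all normalized counts, and none was near 0.

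**Figure D1:**
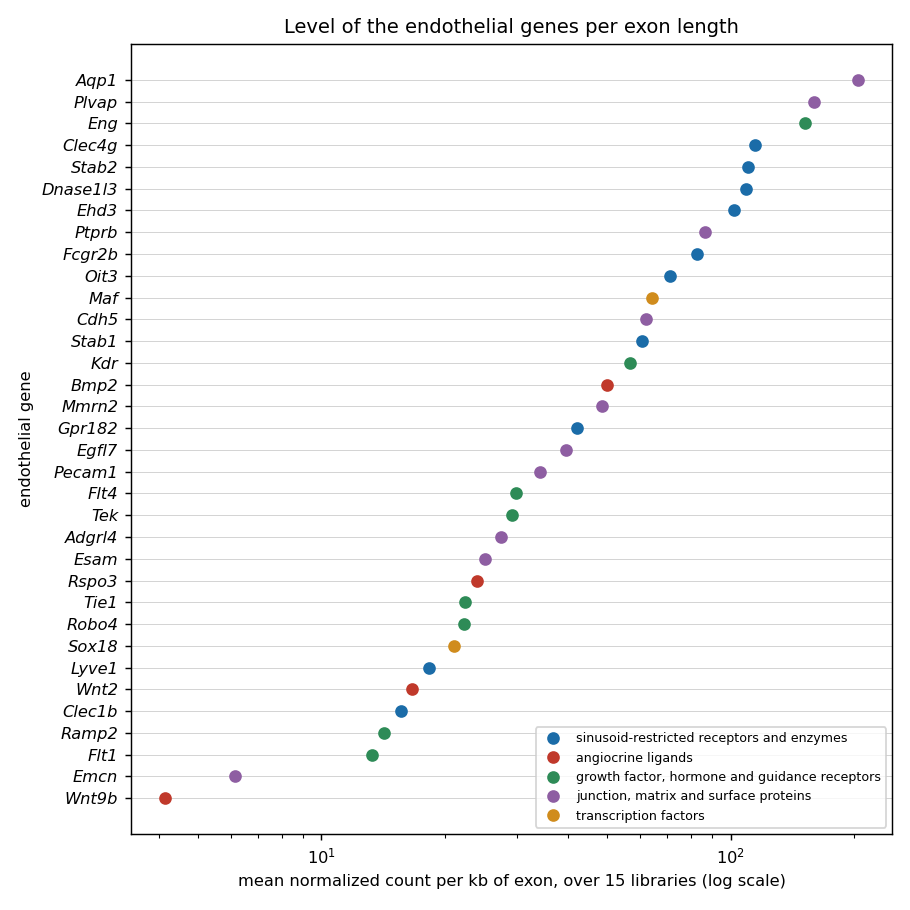
Mean normalized count per kb of exon over 15 libraries (x, log scale) for each of the 34 endothelial genes (y), coloured by role. Aqp1, Plvap and Eng stand at the top and Emcn and Wnt9b at the bottom, a range of 49.2 times.

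None of the 34 endothelial genes was called in either direction. The authors' DESeq2 Wald test called 292 of 13335 genes (2.19%); as shares of all tested genes, 0.585% were higher and 1.6% lower in livers labelled Gata4LKO. Of the 34 endothelial estimates 27 were above 0 and 7 below, and their median was 0.21, a fold of 1.16. Among all tested genes 51.9% of estimates were above 0, with a median of 0.01. At an unadjusted p under 0.05 stood 12 of the 34, of which 11 were higher (32.4%) and 1 lower (2.94%). Of all tested genes 5.17% were higher, 6.21% lower and 11.4% in either direction. The shares over all tested genes also apply beside the counts of each list below. The 34 genes were measured in the same livers and are not replicates, so these counts carry no test of the list. In a piece of liver, a different number of endothelial cells and a different amount of RNA per cell cannot be told apart.

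**Figure D2:**
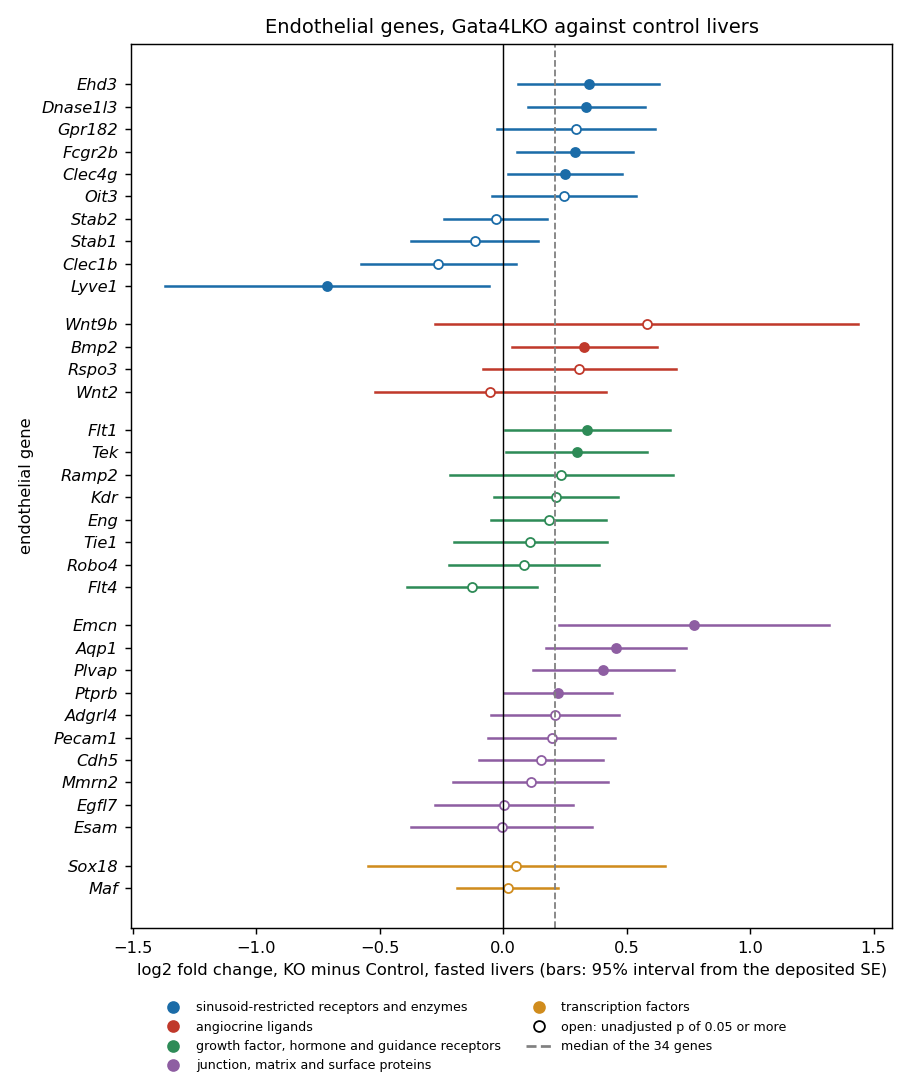
Log2 fold change (x; points) with its 95% interval (bars, 1.96 deposited SE each way) for each endothelial gene (y), Gata4LKO minus Control in fasted livers, grouped by role. Filled points have an unadjusted p under 0.05; 11 intervals lie above 0, 1 (Lyve1) below it, and 22 hold it.

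Sinusoid-restricted receptors and enzymes divided into 6 estimates above 0 and 4 below, with a median of 0.25. Those above were led by Ehd3, an endocytic recycling protein (chromosome 17, 73804134 to 73832094), with a log2 fold change of 0.35 ± 0.15 (SE; adjusted p 0.268, DESeq2, the authors' deposited table). Dnase1l3, a secreted nuclease that digests DNA in chromatin (chromosome 14, 7964533 to 7994573), stood at 0.34 ± 0.12 (SE; adjusted p 0.132, DESeq2, the authors' deposited table). The inhibitory Fc receptor gene Fcgr2b (chromosome 1, 170958617 to 170976547), at 0.29 ± 0.12, and the lectin gene Clec4g (chromosome 8, 3707064 to 3720651), at 0.25 ± 0.12 (SE), had adjusted p of 0.244 and 0.368 in the authors' deposited table. All 4 had intervals above 0, and none was called. Gpr182, an atypical chemokine receptor, at 0.30 ± 0.16, and Oit3, a zona pellucida domain protein, at 0.25 ± 0.15 (SE; the authors' deposited table), had intervals that held 0.

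Lyve1, the hyaluronan receptor gene (chromosome 7, 110850607 to 110863239), had the lowest estimate of the 34. Its log2 fold change was -0.71 ± 0.33 (SE), with a mean of 53.4 normalized counts and an adjusted p of 0.364 in the authors' deposited table. The 95% interval ran from -1.37 to -0.06, and it was the only endothelial gene whose interval lay below 0. Clec1b, which encodes the podoplanin receptor CLEC-2, stood at -0.26 ± 0.16 (SE; the authors' deposited table). The stabilin genes Stab1 and Stab2, scavenger receptors for hyaluronan and modified proteins, were at -0.12 ± 0.13 and -0.03 ± 0.11 (SE; the authors' deposited table). Stab2 is among the most precisely measured of the 34, and its interval ran from -0.24 to 0.18. In mice Lyve1, Stab1 and Clec1b are also made by macrophages, Clec1b by Kupffer cells. These genes were named only from among those with estimates below 0. Whether the other endothelial genes, those with estimates above 0 included, are made by macrophages was not examined.

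Kupffer cell markers lay lower beside these genes: of 17 tested, 16 estimates were below 0 and 1 above, with a median of -0.27 and a range from -0.54 to 0.18. By the authors' DESeq2 Wald test 0 of the 17 were called, and 2 were lower at an unadjusted p under 0.05, Folr2 at -0.54 ± 0.27 and Clec4f at -0.27 ± 0.14 (SE; the authors' deposited table). None of these markers was at 0, and their level in each group is not in the table. The part of Kupffer cell RNA in the values of Lyve1, Stab1, Clec1b or any other of the endothelial genes was not tested.

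Angiocrine ligands, the factors that endothelial cells send to hepatocytes, had 3 estimates above 0 and 1 below, with a median of 0.32. Bmp2, the ligand that drives hepcidin (chromosome 2, 133552159 to 133562885), had a mean of 176.9 normalized counts, with a log2 fold change of 0.33 ± 0.15 (SE; adjusted p 0.334, DESeq2, the authors' deposited table). Its interval ran from 0.04 to 0.62, folds of 1.03 to 1.54. Rspo3, which amplifies Wnt signals, stood at 0.31 ± 0.20 (SE), and the ligand gene Wnt2 at -0.05 ± 0.24 (SE; the authors' deposited table). Wnt9b had the fewest counts of the 34, with a mean of 18.8 and a log2 fold change of 0.58 ± 0.44 (SE; the authors' deposited table). The Wnt9b interval, from -0.27 to 1.44, and the Wnt2 interval, from -0.52 to 0.42, held changes in both directions.

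Genes that receive these ligands were taken as a list. Of 32 tested receptors and targets of Wnt and R-spondin, 1 fell and 0 rose. It was Gulo, of vitamin C synthesis, at -0.50 ± 0.10 (SE; adjusted p 0.000296, DESeq2, the authors' deposited table). The Wnt receptor gene Fzd7 was next, at -0.34 ± 0.12 (SE; adjusted p 0.0991, DESeq2, the authors' deposited table). At an unadjusted p under 0.05 stood 6 lower, these 2 included, and 1 higher, against 6.21% lower and 5.17% higher of all tested genes. The other lower ones, picked after their values were seen, were Axin2, a feedback inhibitor of Wnt signals, at -0.50 ± 0.17, the transcription factor genes Sp5, at -0.75 ± 0.31, and Tbx3, at -0.41 ± 0.16, and the ammonium transporter gene Rhbg, at -0.74 ± 0.27 (SE; the authors' deposited table). The higher one, picked in the same way, was Notum, a secreted Wnt inhibitor, at 0.29 ± 0.12 (SE; the authors' deposited table). The list had 14 estimates above 0 and 18 below, with a median of -0.03. Its other tested genes had intervals that held 0. Of these, picked after their values were seen, Glul stood at -0.03 ± 0.14 and Cyp2e1 at -0.04 ± 0.10 (SE; the authors' deposited table). Oat was at 0.06 ± 0.21 and Lgr5 at -0.03 ± 0.15 (SE; the authors' deposited table). Of 23 tested BMP receptors and targets 0 passed the authors' DESeq2 Wald test, 1 was higher and 1 lower at an unadjusted p under 0.05, and the median was 0.09. These 2 were the receptor gene Acvr2a, at 0.22 ± 0.10, and the transferrin receptor gene Tfr2, at -0.13 ± 0.06 (SE; the authors' deposited table).

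Growth factor, hormone and guidance receptors had 7 estimates above 0 and 1 below, with a median of 0.20. Flt1, a VEGF receptor that also acts as a decoy (chromosome 5, 147561604 to 147726011), stood at 0.34 ± 0.17 (SE; adjusted p 0.421, DESeq2, the authors' deposited table). Tek, the angiopoietin receptor TIE2 (chromosome 4, 94739289 to 94874976), was at 0.30 ± 0.15 (SE; adjusted p 0.403, DESeq2, the authors' deposited table). These 2 intervals only just lay above 0, beginning at 0.01 for both. Kdr, the main signalling receptor for VEGF, was at 0.21 ± 0.13, and the endoglin gene Eng at 0.18 ± 0.12 (SE; the authors' deposited table). Lower still in the authors' deposited table were Tie1, the orphan partner of TIE2, at 0.11 ± 0.16, and Robo4, a guidance receptor of endothelial cells, at 0.09 ± 0.15 (SE). Flt4, the receptor of VEGF-C and VEGF-D, was at -0.13 ± 0.13 (SE; the authors' deposited table). Ramp2, a partner of the adrenomedullin receptor, stood at 0.24 ± 0.23 (SE; the authors' deposited table), and 33.4% of its exon bases also belong to Vps25 on the same strand, so its count is uncertain. Of 10 tested genes for ligands of such receptors, 0 passed the authors' DESeq2 Wald test and 2 were higher at an unadjusted p under 0.05. They were Gdf2, which encodes the endoglin ligand BMP9, at 0.42 ± 0.18 and Vegfd, an FLT4 ligand, at 0.58 ± 0.27 (SE; the authors' deposited table). The median of the ligands was -0.003.

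Junction, matrix and surface proteins had 9 estimates above 0 and 1 below, with a median of 0.20. Aqp1 (chromosome 6, 55336432 to 55348555) had a mean of 537.7 normalized counts, with a log2 fold change of 0.46 ± 0.14 (SE; adjusted p 0.0649, DESeq2, the authors' deposited table). That is a fold of 1.37, with an interval from 1.13 to 1.67, and the smallest p of the 34. Plvap (chromosome 8, 71497765 to 71511752) stood at 0.41 ± 0.15 (SE; adjusted p 0.137, DESeq2, the authors' deposited table). Emcn, a sialomucin of capillaries and veins (chromosome 3, 137341067 to 137432185), had the highest estimate, 0.77 ± 0.28 (SE), from a mean of 33.3 normalized counts, with an adjusted p of 0.140 in the authors' deposited table. Its interval, from 0.23 to 1.32, was wide. Of the bile duct markers, which share Aqp1, 0 of 5 tested passed the authors' DESeq2 Wald test and 0 had an unadjusted p under 0.05. Their median was -0.05, and the smallest p were those of Krt19, at 0.66 ± 0.57, and Epcam, at -0.38 ± 0.38 (SE; the authors' deposited table).

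The other genes of junction, matrix and surface proteins had estimates nearer to 0 than those of Aqp1, Plvap and Emcn. Ptprb, a phosphatase that restrains TIE2, had the most counts of the 34, with a mean of 1152, and stood at 0.22 ± 0.11 (SE; adjusted p 0.427, DESeq2, the authors' deposited table). The adhesion receptor genes Adgrl4 and Pecam1, at 0.21 ± 0.13 and 0.20 ± 0.13 (SE), and Cdh5, the cadherin of endothelial junctions, at 0.15 ± 0.13 (SE), had intervals that held 0 in the authors' deposited table. Mmrn2, a matrix glycoprotein, was at 0.11 ± 0.16 (SE; the authors' deposited table). Egfl7, a secreted vessel protein, at 0.004 ± 0.14, and the junction gene Esam, at -0.01 ± 0.19 (SE; the authors' deposited table), were within 0.01 of no change. The transcription factor genes Maf, which acts in sinusoidal identity in mice, and Sox18, of vessel development, were at 0.02 ± 0.10 and 0.05 ± 0.31 (SE; the authors' deposited table). Maf had the smallest SE of the 34 and an interval from -0.19 to 0.22.

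**Figure D3:**
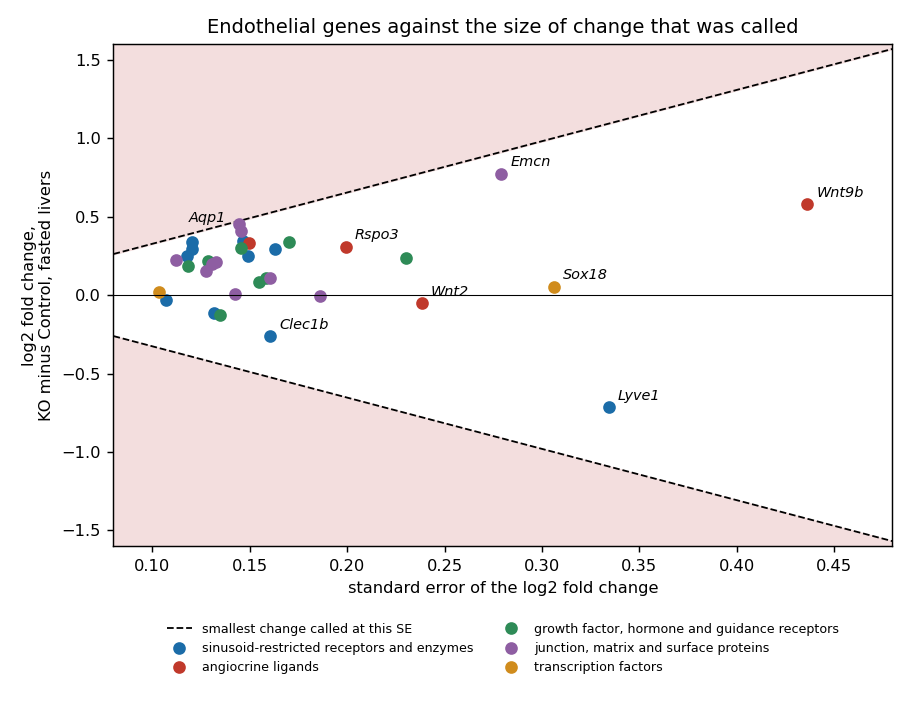
Standard error (x) against log2 fold change (y), Gata4LKO minus Control in fasted livers, for the 34 endothelial genes, coloured by role. Dashed lines mark 3.27 SE, the smallest Wald statistic among called genes; shading is the range in which genes were called, and Aqp1 lies closest to its edge with a needed change of 0.47.

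The size of change that could have been called differed between the genes. The smallest absolute Wald statistic (log2 fold change over SE) among called genes was 3.27. With the deposited SE, that asks for a log2 change between 0.34 in Maf and 1.43 in Wnt9b, with a median of 0.48. Among the 25 endothelial genes with a mean of at least 100 normalized counts it was 0.34 to 0.56, and all their 95% intervals lay within -0.39 and 0.74. With the mean over all libraries taken for both groups, counting error made up 7.20% of the squared SE in Ptprb and 50.6% in Clec1b, with a median of 24.1%. The rest corresponds to a spread between livers of 9.17% in Maf to 36.0% in Wnt9b, with a median of 12.3% and 29.8% in Lyve1. This spread is worked out from the SE of a model of all 15 libraries. It is not a measured spread of the fasted livers, for which no value per liver is in the table.

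Estimates did not follow the level of the genes. Across the 34 genes, the log2 fold change and the mean normalized count had a Spearman rho of 0.07 and a Pearson r of 0.03 on log2 means, given as a description of genes that share the same libraries. The 25 genes with a mean of at least 100 had 22 estimates above 0 and a median of 0.21, and the 9 below 100 had 5 above 0 and a median of 0.05. The largest estimates in both directions, of Emcn, Wnt9b and Lyve1, came from genes with fewer than 100 counts. The 34 genes lie on 13 chromosomes, with at most 5 on 1, chromosome 10.

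**Figure D4:**
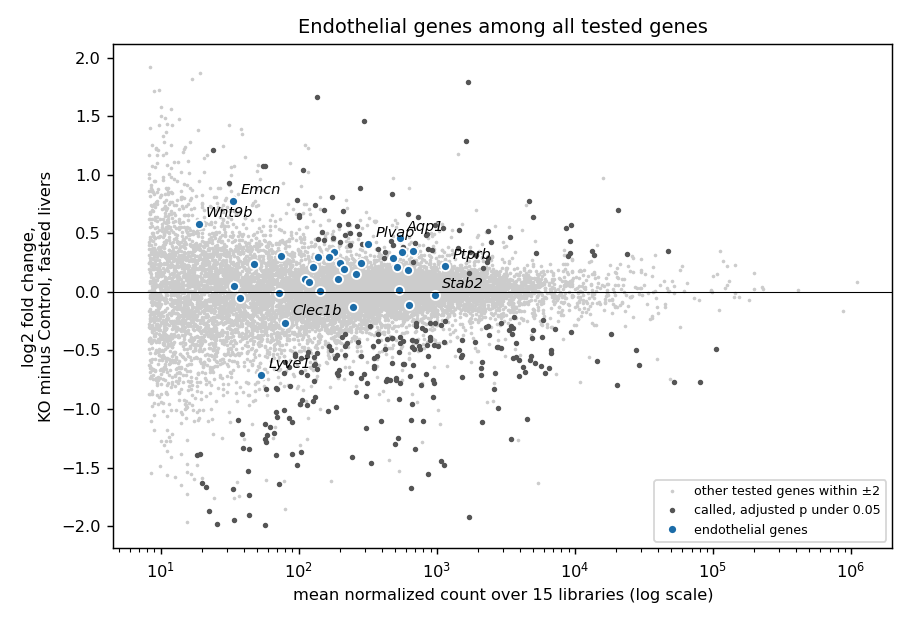
Mean normalized count over 15 libraries (x, log scale) against log2 fold change (y), Gata4LKO minus Control in fasted livers, for the 34 endothelial genes and all other tested genes. Grey points are genes not called and dark points called genes; 33 genes beyond a change of 2 in either direction are not drawn. The endothelial genes lie within the cloud of uncalled genes, mostly above 0.

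Other endothelial genes were compared with the 34. Of 27 tested further genes of sinusoidal endothelium, 2 rose and 0 fell, with 22 estimates above 0 and a median of 0.14. They were Plxnc1, a semaphorin receptor, at 0.56 ± 0.14 (SE) with an adjusted p of 0.00561, and the tetraspanin gene Tspan7, at 0.44 ± 0.13 (SE; adjusted p 0.0297, DESeq2, the authors' deposited table). At an unadjusted p under 0.05 stood 5 higher, these 2 included, and 1 lower, against 5.17% higher and 6.21% lower of all tested genes. The other higher ones were Gata4, Notch1 at 0.24 ± 0.12 and the cytokine receptor gene Il6st at 0.14 ± 0.06, and the lower one was Nrp2, a coreceptor of VEGF and semaphorins, at -0.38 ± 0.14 (SE; the authors' deposited table). Notch1, Il6st and Nrp2 were picked after their values were seen. This list counts the targeted gene, Gata4. Some of its genes had means above any of the 34, such as Selenop at 97506 and Ctsl at 13244 normalized counts. The share of these counts from cells other than endothelial ones was not measured. Of 32 further genes of endothelium in general, 0 passed the authors' DESeq2 Wald test, 1 was higher at an unadjusted p under 0.05 (Gimap4, at 0.39 ± 0.17 SE in the authors' deposited table; next was Cyyr1, at 0.42 ± 0.22 SE), and 23 estimates were above 0 with a median of 0.07. Genes of large vessels and lymphatics (13 tested) and of capillarization and basement membrane (16 tested) had medians of 0.11 and 0.16. By DESeq2 as deposited, 0 of these were called and 0 had an unadjusted p under 0.05. Of the large-vessel and lymphatic genes, the receptor gene Ephb4, at -0.21 ± 0.12, and Mmrn1, at 1.25 ± 0.75 (SE; the authors' deposited table), had the smallest p. Of the capillarization genes these were the caveolin gene Cav1, at 0.73 ± 0.38, and the nidogen gene Nid1, at 0.30 ± 0.18 (SE; the authors' deposited table). Whether the 34 genes differ from these lists was not tested.

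The other cells of the liver gave medians on both sides of 0. Stellate cell genes had 15 of 20 estimates above 0 and a median of 0.14, with 0 called by the authors' DESeq2 Wald test and 0 at an unadjusted p under 0.05. Nearest were the globin gene Cygb, at 0.43 ± 0.22, and the hepatocyte growth factor gene Hgf, at 0.45 ± 0.26 (SE; the authors' deposited table). Genes of secreted hepatocyte proteins, listed with the unsecreted enzymes Cps1 and Tat, had 12 of 18 above 0 and a median of 0.07. Of these 1 fell, Apoa1, at -0.48 ± 0.11 (SE; adjusted p 0.00134, DESeq2, the authors' deposited table). Next was the fetuin gene Ahsg, at -0.15 ± 0.06 (SE; the authors' deposited table), and at an unadjusted p under 0.05 this list had 2 higher, Ttr and Apob, named after their values were seen, and 2 lower. Only 3 of 16 lymphocyte genes were tested; by the authors' DESeq2 Wald test 0 were called and 2 were lower at an unadjusted p under 0.05, Cd4 at -0.97 ± 0.45 and Cd3e at -1.10 ± 0.55 (SE; the authors' deposited table), with means of 15.2 and 8.44 normalized counts.

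**Figure D5:**
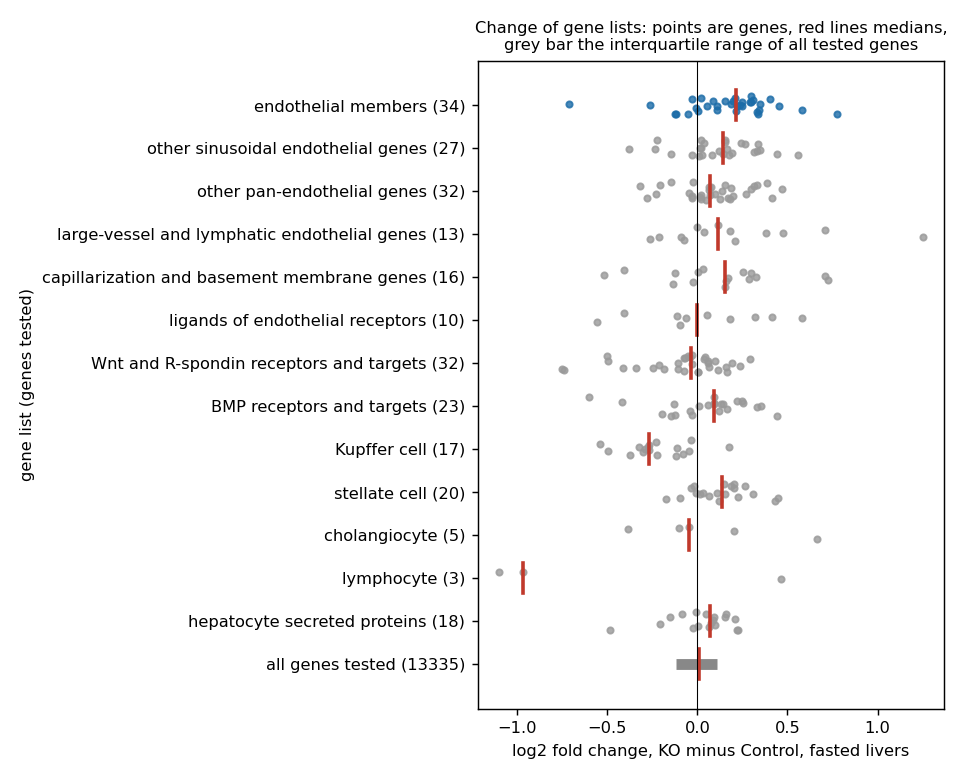
Log2 fold change (x), Gata4LKO minus Control in fasted livers, of single genes (points) in each list (y, number tested in brackets), with list medians as red lines and the interquartile range of all tested genes as a grey bar. The endothelial median is 0.21, the Kupffer cell median -0.27, and that of all tested genes 0.01.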

How the data were processed

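RNA was measured in 15 livers, and the labels' protocols give TRIzol and RNeasy extraction and stranded KAPA libraries. The submitters' processing notes name FastQC, STAR 2.6.0c, the mm10 build and DESeq2. The counter, strand setting and annotation were not given in the sources used here. Per the file headers, the deposited mean is an averaged signal (counts divided by size factors, over libraries). The deposited log2 fold change comes with its SE. Their ratio matches the deposited Wald score within 1e-09, from which the deposited p-values follow. Own Benjamini-Hochberg adjustment over 13335 genes matched the deposited adjusted p within 1e-09. Nothing was refitted; without values per sample, edgeR and other count tests were not used.

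Genes with 1 read in 1 library gave size factors and 4 sets of 4, 4, 4 and 3 libraries. A ridge-penalised negative binomial fit to them was compared for 28 readings (model, reference group, contrast). Only 2 matched within 1e-09, and the next differed by 4.37e-05. They share an interaction model of every library whose baseline is fasted Control, and differ in the contrast: genotype among fasted livers, or feeding among Control livers. The first was taken because the authors named the table for genotype; single reads cannot separate the 2. Titles begin with a number that all livers of a group share and no other group has. What it marks is not stated, so genotype and whatever it stands for cannot be told apart, and p-values measure the spread between these samples.

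Intervals are 1.96 SE each way (95%). Members and lists were chosen with earlier results of these data known. The rule named all 34 members, Gata4, and of other lists the called genes and the 2 of smallest p. Coordinates and exon lengths are from GENCODE M21 (mm10), promoters from RefSeq GRCm38.p6. Python 3.11.15, numpy 2.4.6 and pandas 2.3.3 were used, and the adjustment was tested on simulated data. The readings were run on simulated single reads with the groups known. That run cannot decide between the 2 readings that matched, because here the groups of the single reads are unknown.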

Additional observations from a re-analysis of the deposited data

How the results depend on the processing

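The count of 0 called endothelial genes held in each of 4 other adjustments, with a smallest adjusted p of 0.121 when taken over all genes that had a p, 0.0633 with a minimum mean of 10, 0.0546 with a minimum mean of 100 (25 endothelial genes) and 0.0634 in protein-coding genes. All 127 single-gene results under these adjustments stayed above the threshold of 0.05. At an unadjusted p under 0.05 stood 12 of 34 genes (35.3%), against 11.4% of all tested genes, and 10 of the 25 with a mean of at least 100. The share among all tested genes with such a mean was not worked out. The median log2 fold change of 0.21 was 0.20 when centred on all tested genes, 0.17 as a mean weighted by precision, 0.25 in the 10 sinusoid-restricted genes, 0.20 in the other 24 and 0.21 without any 1 gene. No paired analysis was possible because no value per liver is in the file. Leaving out each liver and another normalization were therefore not run. The 5 least precise genes, Wnt9b, Lyve1, Sox18, Emcn and Wnt2, all had means under 100 normalized counts.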
